A study of Mus musculus with 8 samples.

Results

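The genes described here encode the carriers that move amino acids and amino acid-like neurotransmitters across the plasma membrane and the membranes of vesicles and lysosomes. They were chosen by name: every RefSeq symbol of the families Slc1, Slc3, Slc6, Slc7, Slc32, Slc36, Slc38 and Slc43 that ends in its number. The array carried 78 probes for 60 of these genes, among 55681 probes in all and 20660 named genes, and 2 further genes of the families, Slc6a5 and Slc6a16, had no named probe. Of the 60 genes, 43 had a probe bright enough to be tested and 17 did not. Signals came from one-colour microarrays of mouse morulae at embryonic day 3.0. P150KD embryos were fertilised in vitro, injected at the 1-cell stage with siRNA to P150 (gene Chaf1a), a subunit of CAF-1, the chromatin assembly factor that deposits histones behind the replication fork, and cultured in KSOM medium. SiControl embryos were fertilised, cultured and collected in the same way but received control siRNA. There were 5 P150KD and 3 siControl arrays, each with RNA, amplified in 2 rounds, pooled from 10 embryos, and the labels do not say whether the pools came from separate collections, so p-values measure only the spread between these pools. The labels give no strain.

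As background, the families divide by mechanism. Slc7 proteins form the light chains of exchangers whose heavy chain is an Slc3 protein, apart from a branch of cationic amino acid carriers that works alone. Slc1 and Slc6 proteins use the sodium gradient and include the glutamate carriers, the small neutral amino acid exchangers and the carriers that clear GABA, glycine and monoamines from synapses. Slc38 proteins carry glutamine and other small neutral amino acids, Slc36 and Slc43 proteins serve proton-coupled and facilitated transport, and Slc32a1 loads GABA and glycine into synaptic vesicles. Preimplantation mouse embryos take up amino acids from their surroundings, and glycine and taurine also serve them as osmolytes.

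Both labels and arrays were checked first. Chaf1a read -1.47, 0.52, -0.48, -1.45 and -0.23 on the P150KD arrays, against 2.40, 2.09 and 2.27 on the siControl arrays, in log2 signal with the array's 75th percentile set to 0, the scale of every level below (log2 fold change -2.88, SE 0.48, limma adjusted p = 0.0107). Chaf1b, which encodes the partner subunit, differed by -0.90 (SE 0.18, adjusted p = 0.0188). All 12 markers of the preimplantation embryo were well above background on all 8 arrays. Each array had 50.1% to 55.9% of its spots well above background, and no spot was saturated. By the first index of the array positions in the file headers, P150KD replicate 1 and the 3 siControl arrays share 1 value. P150KD replicates 2 to 5 share the other. That index is called the slide column here, though the headers do not say whether it is a row or a column. Over all tested genes the fold changes had a log2 median of -0.24, and a different scaling moves it (0.19 when scaled to a housekeeping list, -0.12 with quantile normalization), so fold changes near these values have no settled direction. The housekeeping genes themselves had a mean log2 difference of -0.43. RNA of whole embryos was measured, so fewer cells of a type and less RNA per cell cannot be told apart.

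In P150KD morulae the vesicular GABA and glycine carrier gene Slc32a1 rose at least 102-fold, and strong rises were also measured for the cationic amino acid carrier gene Slc7a3, the heavy chain gene Slc3a1 and the Slc38 genes Slc38a11 and Slc38a5. The dopamine carrier gene Slc6a3 fell at least 6.63-fold, and Slc38a4, Slc6a13, Slc38a6 and Slc1a5 fell 4.15-, 3.68-, 3.65- and 2.24-fold. Limits given as "at least" hold for the main processing only, and some alternative processing gave smaller changes. Of 43 tested genes, 8 rose and 5 fell at a limma adjusted p under 0.05, Benjamini-Hochberg adjusted over all 30348 tested probes. Among all 14601 tested genes the same test called 17.1% in either direction, 6.65% risen and 10.5% fallen, beside 30.2% of the carriers in either direction, 18.6% risen and 11.6% fallen. Each of the 13 changed at least 2-fold, and in each the P150KD arrays did not overlap the siControl arrays. Groups did not overlap for 20 of the 43 carriers (46.5%), beside 32.0% of all tested genes. Signals were higher in P150KD for 22 of the carriers and lower for 21.

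These counts depend on single arrays. Without siControl replicate 1, 4 carriers rose and 3 fell, without siControl replicate 3, 5 rose and 3 fell, and without P150KD replicate 4, 7 rose and 3 fell. Blocking on the slide column, which sets only P150KD replicate 1 beside the controls, left 2 that rose (Slc32a1 and Slc3a1) and 2 that fell (Slc6a3 and Slc38a4), where 2.81% of all tested genes were called. The filter let in 3 carriers through P150KD arrays alone (Slc32a1, Slc38a5 and Slc36a4) and Slc6a3 through siControl arrays alone. Of the called carriers, Slc3a1 and Slc38a11 (brighter probe) were well above background on 1 control array and Slc7a3 on 2. The filter asks for 3 arrays, so these carriers too passed it only with the help of P150KD arrays, where they are high. Among the 28 carriers well above background on all 8 arrays, 3 rose and 4 fell, where 18.9% of all such genes were called. Refitted on probes well above background on all arrays, 6 of 29 carriers rose and 7 fell. The share of all genes called is not given here for that refit or for the left-out arrays. These counts therefore do not show whether carriers were called more often than other genes in those fits. The median log2 fold change of the tested carriers was 0.18, but it was -0.39 over carriers well above background on all arrays, -0.10 with no filter on dim probes and -0.40 without siControl replicate 3. Over all tested genes the medians were, in the same order, -0.24, -0.28, -0.10 and -0.25. With no filter the median of the carriers thus lay at that of all genes.

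**Figure D1:**
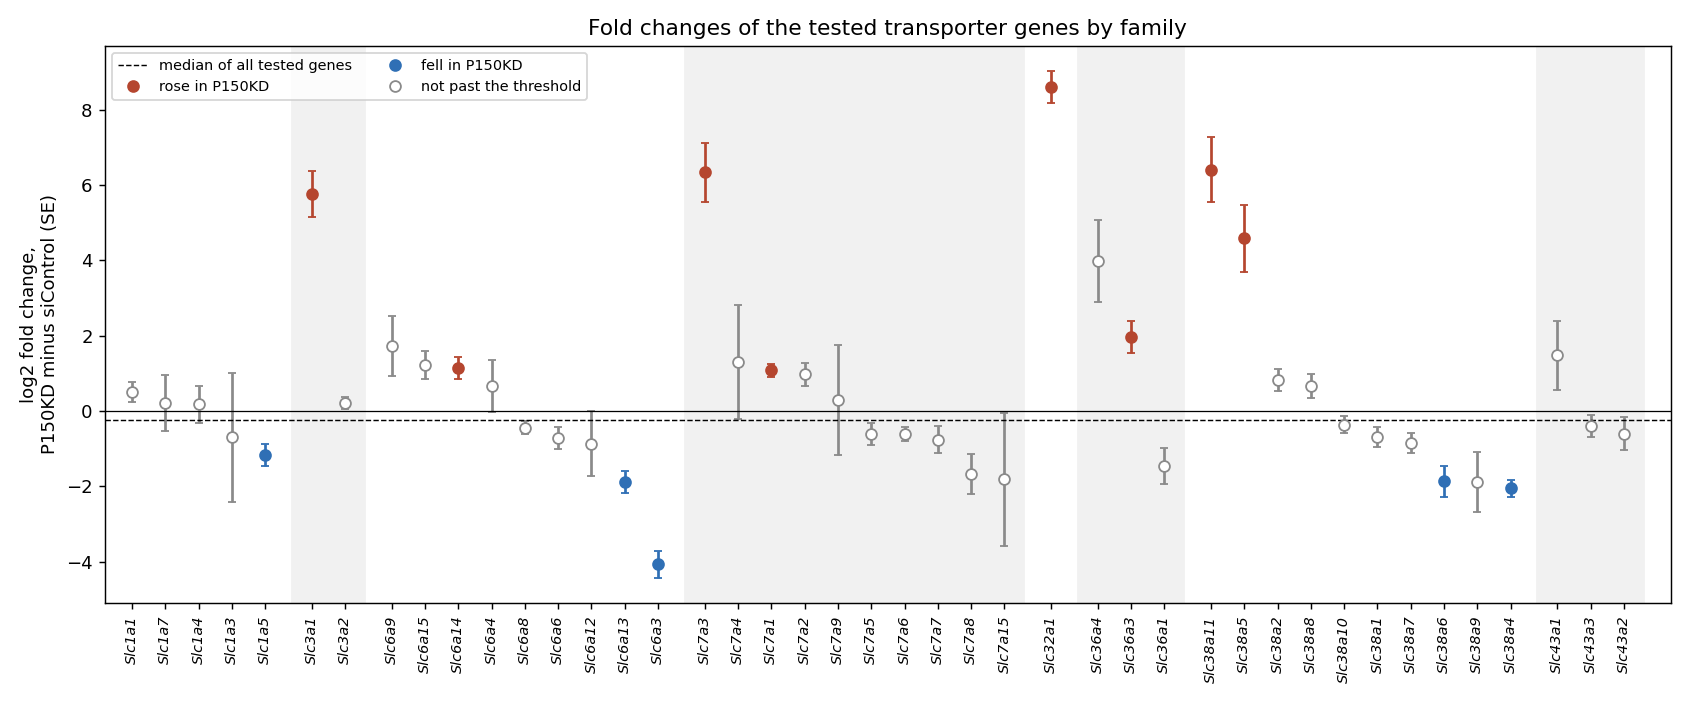
Log2 fold change of P150KD minus siControl (vertical axis, with SE) for the 43 tested carrier genes, grouped by family and ordered within each by size. Filled points passed the limma threshold (8 rose, 5 fell), open points did not, and the dashed line is the median of all tested genes at -0.24. The outermost points, Slc6a3 and Slc32a1, are set against arrays not well above background, so only limits of -2.73 and 6.67, for the main processing, can be given for them. Each family with 3 or more tested genes has points on both sides of the line.

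Slc32a1 is the only gene of its family and the only known carrier that fills inhibitory synaptic vesicles. Its brighter probe read 0.86, 1.23, 1.17, 2.65 and 1.68 on the P150KD arrays and -7.31, -6.66 and -7.26 on the siControl arrays. It was well above background on all 5 knockdown arrays and on no control array, so only a lower limit of the fold can be given, from the dimmest signal still well above background (at least 102-fold, limma adjusted p = 0.000195). On the log2 scale that limit is 6.67 with the main processing, and over the alternatives the log2 fold change ran from 5.31 to 9.03. The second Slc32a1 probe was not well above background on any of the 8 arrays, with -7.19 to -5.91 in P150KD and -6.36 to -5.42 in siControl. The rise is therefore a statement about 1 probe, and where each probe lies in the transcript is not recorded in the files.

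Genes that work around GABA and glycine vesicles were measured beside it. Of 17 genes of neurotransmitter synthesis and breakdown, 9 were tested, 1 rose and 0 fell (median -0.40). Abat, which degrades GABA, had a log2 fold change of 2.06 (SE 0.33, limma adjusted p = 0.00975). Aldh5a1 of the same list, named after its value was seen, differed by -3.40 and did not pass (SE 1.56, adjusted p = 0.190). Gad1 and Gad2 of that list were not tested. Of 27 genes for GABA and glycine receptors and their anchors, 12 were tested, 1 rose and 0 fell (median -0.20). The gene that rose was Gabrr1, a rho subunit of the GABA receptor (3.55, SE 0.44). The anchor gene Gphn, also named after its value was seen, differed by -3.81 and did not pass (SE 1.21, adjusted p = 0.0771). Of 24 glutamate receptor genes, 8 were tested, 1 rose and 0 fell (median -0.42), and the gene that rose was Grm8 (2.22, SE 0.29). In each of these lists 1 gene rose, where 6.65% of all tested genes rose. Of 10 neuron markers, 6 were tested and in limma 0 changed, Stmn2 and Gap43 were above background on no array, and the summed signal of the list ran from 7.77 to 13.3 times the 75th percentile in P150KD and from 11.2 to 16.4 in siControl. The neurofilament gene Nefl was well above background on 4 P150KD arrays and no siControl array and did not pass (adjusted p = 0.0803), and the part of these genes in the Slc32a1 result was not tested. Of 6 astrocyte markers, 5 were tested and 0 changed in limma, S100b was above background on no array, and their summed signal ran from 53.3 to 71.7 in P150KD and from 62.3 to 68.9 in siControl, most of it from Gja1, a gap junction gene that is not particular to astrocytes.

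The RefSeq windows from 250 bases before to 50 bases after the annotated start are shown for the 3 largest rises that have a listed window and for the largest fall, since these members changed most. Build GRCm38.p6 is used, each sequence reads 5′ to 3′ on the strand of the gene, and capitals mark the dinucleotide CG. The windows lie at chr2:158610508-158610807 (plus strand) for Slc32a1, chr2:65363977-65364276 (minus strand) for Slc38a11, chr17:85028097-85028396 (plus strand) for Slc3a1 and chr13:73536497-73536796 (plus strand) for Slc6a3.
Slc32a1: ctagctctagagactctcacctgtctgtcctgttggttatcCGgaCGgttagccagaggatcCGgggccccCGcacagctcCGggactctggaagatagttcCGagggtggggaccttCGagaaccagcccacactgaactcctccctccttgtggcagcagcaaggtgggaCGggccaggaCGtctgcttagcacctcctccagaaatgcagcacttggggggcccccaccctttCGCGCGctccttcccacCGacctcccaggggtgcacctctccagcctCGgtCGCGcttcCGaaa
Slc38a11: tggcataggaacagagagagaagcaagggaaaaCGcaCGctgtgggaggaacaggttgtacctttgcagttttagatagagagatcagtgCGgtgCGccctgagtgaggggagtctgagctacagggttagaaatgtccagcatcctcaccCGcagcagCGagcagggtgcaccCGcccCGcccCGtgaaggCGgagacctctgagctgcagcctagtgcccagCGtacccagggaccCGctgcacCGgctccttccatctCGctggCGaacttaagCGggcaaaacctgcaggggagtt
Slc3a1: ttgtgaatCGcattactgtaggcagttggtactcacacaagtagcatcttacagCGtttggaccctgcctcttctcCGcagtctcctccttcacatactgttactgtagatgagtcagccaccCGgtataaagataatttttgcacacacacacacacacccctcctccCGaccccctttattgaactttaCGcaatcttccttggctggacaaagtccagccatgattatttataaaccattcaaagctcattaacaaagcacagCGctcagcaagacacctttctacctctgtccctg
Slc6a3: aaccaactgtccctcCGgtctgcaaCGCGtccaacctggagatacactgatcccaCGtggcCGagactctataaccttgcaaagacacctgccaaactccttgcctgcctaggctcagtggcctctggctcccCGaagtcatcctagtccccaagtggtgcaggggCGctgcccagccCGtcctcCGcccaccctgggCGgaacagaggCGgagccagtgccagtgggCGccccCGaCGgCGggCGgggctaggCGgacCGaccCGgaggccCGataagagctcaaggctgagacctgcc
The Slc32a1 window held 17 CG dinucleotides, that of Slc38a11 16, that of Slc3a1 7 and that of Slc6a3 20, beside a median of 7 over all 32851 windows. Windows were listed for 42 of the 60 genes, 11 of them called. Over the 8 windows of genes that rose the count ran from 1 to 27 with a median of 8.5, and over the 8 windows of genes that fell from 2 to 26 with a median of 6. Some carrier genes have several windows, 62 in all. A TATA box, TATAAA on either strand, stood in the windows of 6 carrier genes, among them Slc3a1, Slc7a1 and Slc38a4 of the called ones. It stood in 9.68% of the carrier windows and in 13.6% of all windows. The element bound by C/EBP and ATF4, TGATGNAA on either strand, stood in windows of Slc1a4, Slc7a7, Slc7a11 and Slc6a21. This element stood in 8.1% of the carrier windows and in 3.97% of all windows. It stood in 0 of the windows of the 11 called genes that have one, which says only that these letters are not there. The cAMP response element TGACGTCA stood in the window of Slc38a6, in 1.61% of the carrier windows and in 1.79% of all windows. GGGCGG, the GC box, stood in windows of 28 carrier genes, in 53.2% of the carrier windows and in 35.7% of all windows. Neither Slc7a3 nor Slc1a5 had a window.

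**Figure D2:**
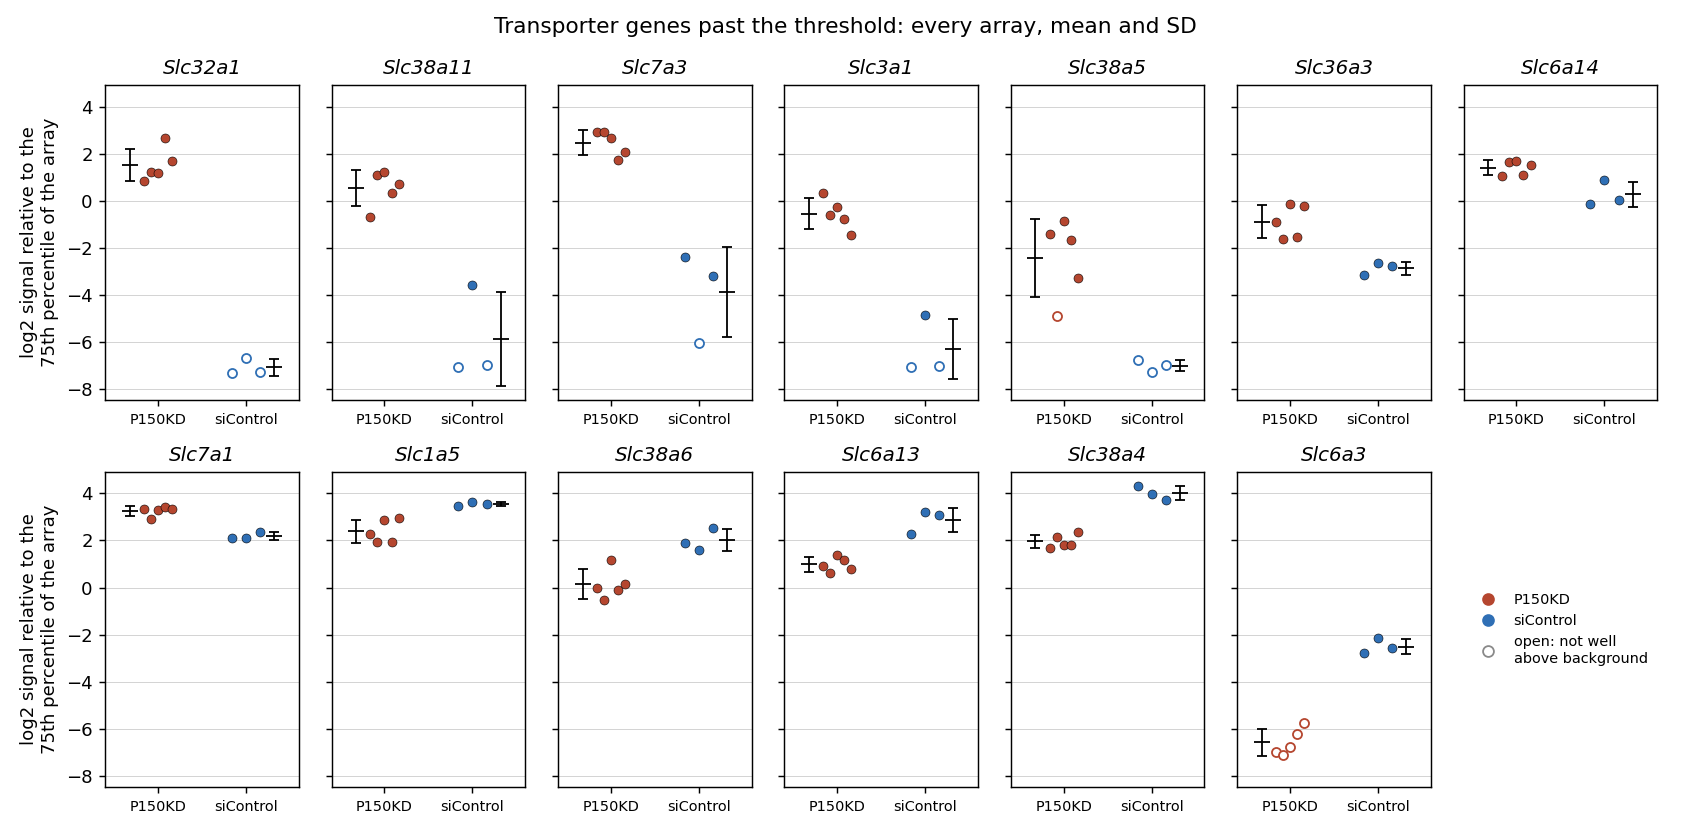
Log2 signal with the 75th percentile of each array at 0 (vertical axis) for the 13 carrier genes past the threshold, with 1 point per array, 5 P150KD arrays left and 3 siControl arrays right in each panel, and the mean with SD beside them. Open points were not well above background. No panel has overlapping groups, and open points occur in siControl for Slc32a1, Slc38a11, Slc7a3, Slc3a1 and Slc38a5 and in P150KD for Slc6a3 and Slc38a5.

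Among the heavy chains, Slc3a1 (rBAT, the partner of the cystine and dibasic amino acid carrier Slc7a9) read 0.33, -0.59, -0.26, -0.76 and -1.46 in P150KD, against -7.06, -4.83 and -7.01 in siControl. Every knockdown array lay above every control array, and 1 control array, replicate 2, was well above background (log2 fold change 5.76, SE 0.61, limma adjusted p = 0.00289). Slc7a9 itself read -2.49, 0.61, -4.12, -5.51 and -2.80 in P150KD and -2.56, -1.44 and -5.47 in siControl. Its groups overlapped (0.29, SE 1.45, adjusted p = 0.911). Slc3a2, the heavy chain CD98 that most Slc7 light chains need, read 5.50, 5.15, 5.34, 5.33 and 5.54 in P150KD and 5.18, 5.18 and 5.11 in siControl, a difference of 0.21 (SE 0.16) that did not pass (adjusted p = 0.413). Of 7 kidney and gut markers, where Slc3a1 and Slc7a9 are typically found, 4 were tested, 1 rose (Fabp2) and 0 fell, and Umod was above background on no array. The summed signal of that list ran from 57.0 to 112 in P150KD and from 92.0 to 121 in siControl, but most of it came from Lrp2 (5.75 to 6.78 in P150KD and 6.52 to 6.92 in siControl). Fabp2 had a log2 fold change of 5.83 (adjusted p = 0.0137), and Vil1, well above background on 4 P150KD arrays and no siControl array, did not pass (adjusted p = 0.101). The part of these genes in the Slc3a1 result was not tested.

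None of the 4 tested light chains that pair with Slc3a2 passed. Slc7a5 (LAT1, which imports leucine and other large neutral amino acids) differed by -0.60 (SE 0.29, limma adjusted p = 0.207) with its brighter probe and by -0.88 (SE 0.24, adjusted p = 0.0501) with its dimmer one. Slc7a6, an exchanger that exports cationic amino acids, read 3.06, 3.28, 2.88, 3.39 and 3.29 in P150KD and 3.76, 3.80 and 3.81 in siControl. Its groups did not overlap, yet it stayed outside the threshold (-0.61, SE 0.18, adjusted p = 0.0585). The related Slc7a7 differed by -0.76 (SE 0.36) and Slc7a8 (LAT2), well above background on 1 knockdown and 2 control arrays, by -1.66 (SE 0.53), with adjusted p of 0.200 and 0.0794. Slc7a11, the cystine importer that feeds glutathione synthesis, was well above background on 1 P150KD array and no siControl array, and Slc7a10 on no P150KD and 1 siControl array, so neither was tested. Slc7a12, Slc7a13 and Slc7a14 were also too dim to be tested.

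The cationic amino acid carriers, which import arginine and lysine without a heavy chain, include 2 of the genes that rose. Slc7a3 read 2.91, 2.93, 2.65, 1.74 and 2.08 on the P150KD arrays, against -2.38, -6.02 and -3.20 on the siControl arrays. All knockdown arrays lay high, and siControl replicate 2 was not well above background, so the fold of 80.7 rests in part on values near the floor (log2 fold change 6.33, SE 0.78, limma adjusted p = 0.00447). Slc7a1, the broadly expressed member, read 3.35, 2.91, 3.28, 3.42 and 3.33 in P150KD and 2.10, 2.09 and 2.36 in siControl, a tight 2.11-fold rise (1.08, SE 0.18, adjusted p = 0.0113), and its adjusted p was 0.0520 without siControl replicate 1. Slc7a2 differed by 0.97 (SE 0.31) without overlap of the groups and did not pass (adjusted p = 0.0812). Slc7a4 and Slc7a15 are other tested Slc7 genes and are not counted here as cationic carriers. Slc7a4 differed by 1.29 (SE 1.51), and Slc7a15 varied widely between arrays of a group. Slc7a15 read -5.76, -7.03, -0.72, -1.55 and -0.49 in P150KD and -0.78, -3.27 and 0.17 in siControl. In the Slc7 family 2 of 10 tested genes rose and 0 fell.

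The list of amino acid synthesis and breakdown includes the genes that make and degrade arginine. In it 36 of 38 genes were tested, 6 rose and 6 fell, where 6.65% of all tested genes rose and 10.5% fell. The median log2 fold change of the list was -0.19. Without siControl replicate 1, 0 rose and 2 fell in limma, and without siControl replicate 2, 3 rose and 2 fell. The 4 with the smallest p were Ass1, which makes argininosuccinate on the way to arginine (-1.93, SE 0.20), the asparagine synthetase gene Asns (1.19, SE 0.20), Pycrl, a pyrroline-5-carboxylate reductase gene (-2.05, SE 0.36), and the threonine dehydrogenase gene Tdh (-0.92, SE 0.17). Arg2, the mitochondrial arginase gene, named after its value was seen, rose by 2.20 (SE 0.43, adjusted p = 0.0175), while Asl (-0.46) and Arg1 (0.65) did not pass. Among the other carriers of amino acids and neurotransmitters outside the families, 19 of 29 were tested, 2 rose and 2 fell; without siControl replicate 1 these counts were 1 and 1, and without siControl replicate 3 they were 0 and 1. Slc15a3, a lysosomal peptide and histidine carrier, rose by 2.76 (SE 0.54), and Slc25a44, which brings branched-chain amino acids into mitochondria, by 0.87 (SE 0.17). The mitochondrial serine carrier gene Sfxn1 fell by 1.31 on the log2 scale and the lysosomal cystine exporter gene Ctns fell by 2.30.

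The Slc38 family had the most changes, 2 risen and 2 fallen among 10 tested genes. Slc38a11, whose substrates are not well established, read -0.67, 1.08, 1.24, 0.32 and 0.70 in P150KD and -7.05, -3.58 and -6.98 in siControl. Of the control arrays only replicate 2 was well above background, and the groups lay far apart (6.41, SE 0.86, limma adjusted p = 0.00552). The size of that difference rests in part on values near the floor. A second, dimmer Slc38a11 probe, well above background on all 8 arrays, rose as well but by 1.20 (SE 0.31, adjusted p = 0.0436), so the size of the rise differs between the probes. Slc38a5, an exchanger of glutamine, asparagine and glycine, read -1.41, -4.89, -0.84, -1.67 and -3.29 in P150KD and -6.77, -7.25 and -6.99 in siControl. It was well above background on 4 knockdown arrays and no control array, which gives at least 6.63-fold (adjusted p = 0.0177, up to 0.0607 when 1 control array was left out or the background was corrected by normexp). On the log2 scale that limit is 2.73 with the main processing, and over the alternatives the log2 fold change ran from 1.89 to 5.59.

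Slc38a4, an imprinted carrier of neutral and cationic amino acids that is abundant in placenta and liver, read 1.66, 2.14, 1.82, 1.82 and 2.36 in P150KD, against 4.31, 3.99 and 3.73 in siControl. The arrays of each group lay close together and the groups apart (log2 fold change -2.05, SE 0.23, limma adjusted p = 0.00349). Blocking on the slide column gave -2.35 (adjusted p = 0.0375). Slc38a6 read -0.01, -0.53, 1.18, -0.09 and 0.14 in P150KD and 1.91, 1.59 and 2.51 in siControl (-1.87, SE 0.40, adjusted p = 0.0244), with P150KD replicate 3 nearest to the controls. Its adjusted p reached 0.0843 over the alternatives without a block and its call was lost under housekeeping scaling and when siControl replicate 1 or 3, or P150KD replicate 1 or 4, was left out.

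The other glutamine carriers did not pass. Slc38a2 (SNAT2, which cells induce when amino acids are short) read 0.39, -0.38, 0.09, 0.09 and 0.60 in P150KD and -1.03, -0.21 and -0.74 in siControl (0.82, SE 0.29, adjusted p = 0.101). Slc38a1 (SNAT1) had 3 tested probes, all lower in P150KD and none past the threshold, with the brightest at -0.70 (SE 0.26, adjusted p = 0.123). Slc38a7, a lysosomal glutamine exporter, differed by -0.85 (SE 0.27) with groups that did not overlap (adjusted p = 0.0794). Slc38a9, the lysosomal carrier that reports arginine to mTORC1, differed by -1.88 (SE 0.79, adjusted p = 0.157) with its bright probe, while each of its other 2 probes was well above background on 2 P150KD arrays and on no siControl array. Slc38a8 and Slc38a10 differed by 0.67 and -0.37, and Slc38a3 was too dim to be tested.

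The lysosomal side of amino acid sensing was covered by a list of 34 genes of mTORC1 and its regulators. Of these, 32 were tested, 1 rose and 6 fell (median -0.44), where 6.65% of all tested genes rose and 10.5% fell. In limma 0 rose and 0 fell without siControl replicate 1 or when blocked on the slide column, 0 rose and 1 fell without siControl replicate 2, and 0 rose and 3 fell when scaled to the median. The 4 with the smallest p were the small GTPase gene Rraga (-1.35, SE 0.23), Lamtor2 (-1.28, SE 0.24) and Lamtor4 (-1.55, SE 0.31) of the Ragulator scaffold, and the folliculin gene Flcn (-1.07, SE 0.21). Depdc5, part of the inhibitory GATOR1 complex and named after its value was seen, was the gene that rose (1.10, SE 0.27). Of 24 subunits and partners of the vesicular proton pump, whose gradient drives Slc32a1 and Slc36 carriers, 21 were tested, 0 rose and 3 fell: Atp6v1g1, Atp6v0b and Atp6ap2, with log2 fold changes between -1.32 and -0.97. In that list 0 genes fell in limma without siControl replicate 1 and 1 fell without siControl replicate 2 or 3. Their fold changes include the -0.24 by which the median of all genes lay below 0.

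In the Slc36 family of proton-coupled carriers, Slc36a3, which is known mainly from testis, read -0.90, -1.63, -0.12, -1.55 and -0.24 in P150KD and -3.17, -2.65 and -2.75 in siControl. It was measured on all 8 arrays with a clear gap between the groups (log2 fold change 1.97, SE 0.41, limma adjusted p = 0.0223). Its call was lost when any 1 of the 3 control arrays was left out (adjusted p up to 0.0853). Its other probe was well above background on 1 P150KD array and was not tested. Of 9 sperm and spermatid markers 5 were tested and 0 changed in limma, Akap4 and Spata3 were above background on no array, and their summed signal ran from 0.271 to 2.04 in P150KD and from 0.234 to 0.303 in siControl. Smcp was well above background on 3 P150KD arrays and no siControl array (adjusted p = 0.156), and the part of these genes in the Slc36a3 result was not tested. Slc36a4, a high-affinity proline and tryptophan carrier, was well above background on 4 P150KD arrays and no siControl array, at -3.91, -1.43, -5.40, -4.82 and -0.84 against -7.22, -7.40 and -7.16. It did not pass (adjusted p = 0.0519), and its other probe stayed dark on all 8 arrays. Slc36a1, the lysosomal and gut carrier, differed by -1.46 (SE 0.47, adjusted p = 0.0801), and Slc36a2 was too dim to be tested.

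In the Slc43 family of facilitated carriers, limma called 0 of 3 tested genes, and at an unadjusted threshold of 0.05 also 0. Slc43a1, which carries large neutral amino acids, read -3.11, -3.50, -4.12, -2.59 and -2.09 in P150KD and -2.79, -3.94 and -6.95 in siControl (1.48, SE 0.92). Slc43a2 differed by -0.60 (SE 0.43) and Slc43a3, which is known as a purine base carrier rather than an amino acid carrier, by -0.39 (SE 0.28). Adjusted p-values of the 3 lay between 0.318 and 0.390.

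Among the Slc1 genes, which hold the glutamate carriers and the neutral exchangers ASCT1 and ASCT2, 1 of 5 tested genes fell and 0 rose. Slc1a5 (ASCT2, an exchanger of glutamine) read 2.26, 1.92, 2.86, 1.92 and 2.96 in P150KD and 3.46, 3.63 and 3.56 in siControl. The controls lay within a narrow range above every knockdown array (log2 fold change -1.17, SE 0.30, limma adjusted p = 0.0424). A dimmer Slc1a5 probe differed by -1.01 (SE 0.39, adjusted p = 0.124). The call was lost in 12 of 19 alternatives, among them leaving out any control array or P150KD replicate 1, 2 or 4 (adjusted p up to 0.191). Slc1a1 (EAAT3, which carries glutamate, aspartate and cysteine) read 5.46, 5.42, 5.04, 4.71 and 4.84 in P150KD and 4.36, 4.38 and 5.02 in siControl and did not pass (0.51, SE 0.27, adjusted p = 0.239). Slc1a4 (ASCT1) differed by 0.18 (SE 0.49), with siControl replicate 3 at 1.77 below the other control arrays at 3.91 and 3.75, and Slc1a3 (GLAST) by -0.70 (SE 1.71). Slc1a7 (EAAT5, known from retina) differed by 0.21 (SE 0.75). The glial glutamate carrier Slc1a2 was well above background on 2 P150KD arrays and no siControl array by its best probe and was not tested, nor was Slc1a6 (EAAT4), above background on 1 siControl array.

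Of 17 Slc6 genes with a probe, 9 were tested, 1 rose and 2 fell. Slc6a3, which returns dopamine to nerve terminals, read -7.00, -7.11, -6.76, -6.22 and -5.74 in P150KD, against -2.79, -2.16 and -2.56 in siControl. It was well above background on all 3 control arrays and on no knockdown array, a fall of at least 6.63-fold (limma adjusted p = 0.00172). On the log2 scale that limit is -2.73 with the main processing, and over the alternatives the log2 fold change ran from -4.50 to -1.69. Slc6a13 (GAT2, a carrier of GABA and taurine) read 0.90, 0.63, 1.39, 1.19 and 0.78 in P150KD and 2.27, 3.20 and 3.10 in siControl (-1.88, SE 0.29, adjusted p = 0.00827). The lowest control array lay above the highest knockdown array. Slc6a14, a broad carrier of neutral and cationic amino acids, read 1.07, 1.66, 1.71, 1.11 and 1.51 in P150KD and -0.12, 0.89 and 0.05 in siControl, so siControl replicate 2 came close to the knockdown arrays (1.14, SE 0.29, adjusted p = 0.0419). That call was lost without siControl replicate 1 or 3 or any 1 of the 5 P150KD arrays, with adjusted p up to 0.142.

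Slc6a9, Slc6a6 and Slc6a8, which carry glycine, taurine and creatine, did not pass, while Slc6a13, which also carries taurine, fell as given above. Slc6a9 (GLYT1, the glycine carrier) read 1.71, -1.11, 0.75, 0.41 and 0.12 in P150KD and -1.44, -2.84 and 0.23 in siControl. Its probes differed by 1.73 (SE 0.81) and 1.96 (SE 0.88), with overlapping groups and adjusted p of 0.197 and 0.180. Slc6a6 (the taurine carrier) differed by -0.71 (SE 0.29) and Slc6a8 (the creatine carrier) by -0.44 (SE 0.18), both with an adjusted p of 0.142. Slc6a15, a carrier of branched-chain amino acids and proline, read 3.04, 1.53, 2.42, 2.32 and 2.40 in P150KD and 0.51, 1.35 and 1.50 in siControl (1.22, SE 0.38, adjusted p = 0.0708). The serotonin carrier Slc6a4 and the betaine and GABA carrier Slc6a12 differed by 0.66 and -0.86 with wide errors (SE 0.70 and 0.85). Among the genes too dim to be tested were Slc6a2, Slc6a7, Slc6a11, Slc6a17, Slc6a18, Slc6a19 and Slc6a21, which include the noradrenaline carrier, Slc6a2.

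The sodium pump sets the gradient that Slc1, Slc6 and many Slc38 carriers use. Of its 14 listed genes 9 were tested, 1 rose and 4 fell (median -0.53), where 6.65% of all tested genes rose and 10.5% fell. Only 1 gene of the pump fell without siControl replicate 1 or 3. Its regulators Fxyd4, Fxyd6 and Fxyd5 had log2 fold changes of -1.31 (SE 0.23), -2.50 (SE 0.47) and -2.41 (SE 0.47), and the beta subunit gene Atp1b1 one of -2.15 (SE 0.42). The neuronal and glial beta subunit gene Atp1b2, named after its value was seen, was the gene that rose (2.36, SE 0.61). Atp1b1 is also known for its part in blastocyst cavity formation. Of the 12 markers of the preimplantation embryo 5 fell and 0 rose, and their summed signal ran from 344 to 408 in P150KD and from 674 to 726 in siControl. Its part in the results above was not tested. Of 10 cumulus and granulosa cell markers 3 were tested and 0 changed in limma, and Has2, Ptgs2, Tnfaip6, Ptx3 and Fshr were above background on no array.

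Several carriers are known targets of ATF4, the transcription factor of the response to amino acid shortage, so its pathway was listed too. Of 14 regulators, all tested, 3 rose and 0 fell (median 0.43), where 6.65% of all tested genes rose and 10.5% fell. Those that rose were the stress-induced gene Nupr1 (5.54, SE 0.49), Trib3 (2.10, SE 0.41), whose product restrains ATF4, and the related factor gene Atf5 (1.89, SE 0.40). Atf4 itself differed by 0.68 and did not pass (adjusted p = 0.0501). These data do not mark which carriers are its targets, and the part of this pathway in the carrier results was not tested. Of the 10 genes of glutathione synthesis and turnover 1 rose and 2 fell, and 1 fell without any 1 of the siControl arrays. Chac1, which degrades glutathione, rose by 5.77 (SE 0.34), Gss, the glutathione synthetase gene, fell by 1.14 and Chac2 fell by 4.03, well above background on 1 of the 5 knockdown arrays. Of 23 genes for cytosolic aminoacyl-tRNA synthetases and their scaffold, all tested, 0 rose and 3 fell: Qars, Farsb and Aimp1, with log2 fold changes between -0.95 and -0.84, and 1 gene of that list fell without siControl replicate 1. Over the 11 related lists 17 distinct genes rose and 26 fell, against 8 and 6 without siControl replicate 1, 12 and 10 without siControl replicate 2, and 11 and 15 without siControl replicate 3.

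**Figure D3:**
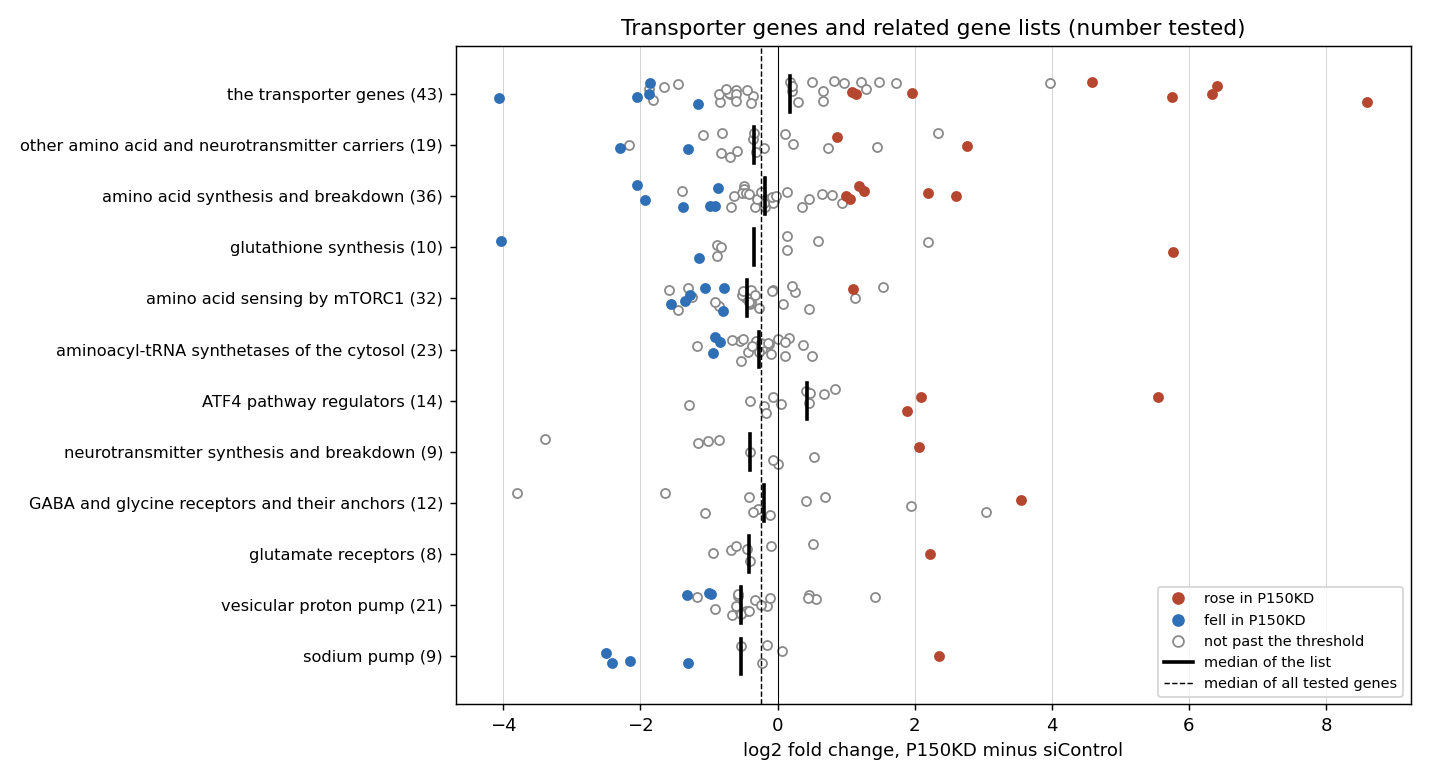
Log2 fold change of P150KD minus siControl (horizontal axis) for the carrier genes (top) and the 11 related lists, 1 point per tested gene, filled where past the threshold, with the median of each list as a bar and the median of all tested genes as the dashed line. The outermost carriers, Slc6a3 and Slc32a1, have only limits of -2.73 and 6.67, for the main processing. The list medians lie between -0.53 and 0.43, and that of the carriers (0.18) is negative under a stricter or no filter and without siControl replicate 2 or 3 or P150KD replicate 4. The median of all tested genes is also negative in those fits.

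Of the 15 carriers that have several probes, 12 had at least 1 bright enough to be tested, and their probes were compared. Slc38a11 is the 1 gene with 2 probes past the threshold, both risen. For Slc32a1, Slc36a3 and Slc1a5 a single probe passed, and the others were too dim to be tested or, for Slc1a5, lay at a similar difference outside the threshold. Slc7a15 had probes that differed in sign, by -1.82 (SE 1.76) and 0.50 (SE 1.16), neither past the threshold.

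**Figure D4:**
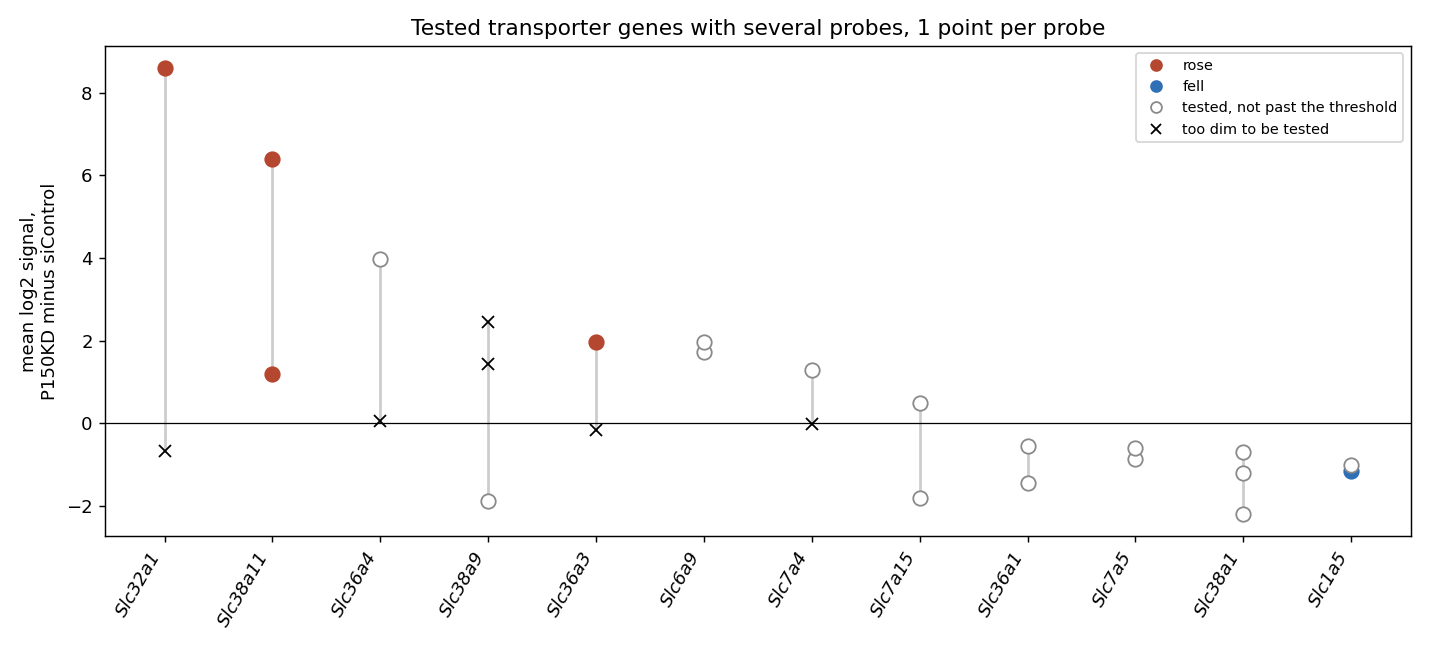
Mean log2 signal of P150KD minus siControl (vertical axis) for each probe of the 12 tested carrier genes with several probes. Filled points rose or fell past the threshold, open points were tested and did not pass, and crosses were too dim to be tested. Slc38a11 has 2 filled points, and Slc32a1 and Slc36a3 have 1 filled point and 1 cross each.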

How the data were processed

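Agilent Feature Extraction 10.5.1 read the one-colour scans, per the file headers. Its deposited processed signal is an intensity with background and spatial trend removed and no scaling between arrays. Spot and local background medians were also deposited as unscaled intensity, and other deposited columns used are spot flags. Log2 values in the authors' deposited series table matched log2 processed signals scaled to the 75th percentile of the array and centred per probe. Per the labels, RNA was amplified linearly in 2 rounds and an equal mass labelled, so levels are relative.

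Control spots were left out, and spots of a probe were averaged as log2 values, without non-uniform or outlying spots where another remained. The 75th percentile over probes, 819.5 to 1304.5 in linear signal, was subtracted on the log2 scale. Tested probes had to be well above background on 3 or more of 8 arrays. Symbols were taken from the RefSeq gene table by accession (27235 probes named, 1450 accessions unmatched), older symbols of listed genes were updated, and Samtor was not matched. P150KD and siControl were compared with limma 3.58.1 in R 4.3.3 (two-sided, Benjamini-Hochberg over all tested probes, threshold 0.05), and the brightest tested probe stood for its gene. For a group dark on all its arrays, a lower limit of the fold was computed, replacing the dim value on each array by the lowest well-measured signal of that array, or the probe's own if higher. This limit holds for this main processing and not for the alternatives. The number of arrays limits the precision.

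The members, related lists, markers and tests were chosen with earlier results of these data known. Named are all called members, a fixed set of carriers and heteromer partners, the uncalled member with the largest difference in each family, and up to 4 called genes with the smallest p in each related list; other named carriers are given to account for each family. Alternatives were normexp with an offset of 50, quantile, median and housekeeping scaling (17 genes), the series table, no filter or a stricter one, the mean of a gene's probes, blocks for the replicate number or the slide column, eBayes with trend and robust settings, and leaving out each array. Some items are not reported here. The 8 arrays were scanned from 1 slide on 1 date.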

Additional observations from a re-analysis of the deposited data

Results flagged for a closer look

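Among 37 genes whose 5 P150KD arrays were examined, 2 had an array set apart from the others by more than 0.71 of the group's range (the critical value of Dixon's test for 5 samples); chance gives about 1 in 20. Slc1a3 read -7.41 on P150KD replicate 2, against -1.09 to 0.01 on the other knockdown arrays, and was not well above background there. Slc7a1 read 2.91 on P150KD replicate 2, against 3.28 to 3.42 on the others; this array still lay above every siControl array.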

How the results depend on the processing

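The 13 called carriers kept their direction in each of the 18 or 19 alternatives that gave a value; Slc32a1, Slc3a1, Slc7a3, Slc38a5 and Slc6a3 have none under the stricter filter. Slc32a1, Slc3a1, Slc38a4 and Slc6a3 kept their calls in all but the replicate block, and Slc7a3, Slc38a11 and Slc6a13 in all but the replicate and slide column blocks. With the replicate block 0 carriers rose or fell in limma, and the median of the carriers was -0.21, beside -0.24 over all tested genes. Replicate numbers 4 and 5 exist only in P150KD, so those arrays add nothing to the group difference under this block. Few degrees of freedom then remain, and fold changes such as those of Slc32a1 (8.17) and Slc38a4 (-2.14) moved little. In that fit 0 genes of the related lists rose or fell, and Chaf1a differed by -2.73 (adjusted p = 0.163). Same-numbered arrays of the groups had deviations correlated at -0.01, -0.07 and -0.02, and different-numbered arrays at -0.03 to 0.07. With 3 control arrays these values cannot decide whether the numbers pair the arrays. Blocked on the slide column, 2 carriers rose and 2 fell, 3 related genes rose and 5 fell, and Chaf1a differed by -3.72 (adjusted p = 0.0509). The 17 housekeeping genes had a mean log2 difference of -0.43 in P150KD against siControl, and 1 rose and 4 fell in limma. Scaling to them therefore raises every fold change by construction. Scaled to the housekeeping list, 13 carriers rose and 3 fell, and 10 related genes fell. The median of the carriers was then 0.60, beside 0.19 over all tested genes, and the share of all genes called is not given here. Over probes above background on all 8 arrays the median of the carriers was -0.39, beside -0.28 over all tested genes. Leaving out each array in turn gave 4 to 8 risen carriers, 3 to 5 fallen carriers, medians of -0.40 to 0.24, 8 to 16 risen and 6 to 22 fallen related genes, and Chaf1a differences of -3.16 to -2.66. The medians of all tested genes in these fits ran from -0.25 to -0.22. Of uncalled genes, Slc1a3 turned to 0.88 when blocked on the slide column and ranged from -1.16 to 0.69 (without P150KD replicate 2) over left-out arrays, Slc1a4 ranged from -0.51 (without siControl replicate 3) to 0.56, and Slc7a9 from -0.86 (without siControl replicate 3; -0.57 without P150KD replicate 2) to 1.15. The cause of these changes was not tested. Folds of probes near background are limited by their signal.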

Other observations

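For the 3 carriers with the smallest p, the tested genes outside the families with the most similar pattern over the 8 arrays were listed by Pearson's r, as a description; all of these correlations rest on the difference between the same groups. For Slc32a1 they were 2610524H06Rik (r = 0.998), Zfp939 (0.995) and Rdh16 (0.994). For Slc6a3 they were Kcnk6 (0.991), Mrpl10 (0.990) and Slco2a1 (0.989), and for Slc3a1 they were Nupr1 (0.995), Cry1 (0.994) and Ifitm3 (0.992).

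Of the 17 carriers that were too dim to be tested, 8 were above background on no array by any probe, and 9 on 1 or 2 arrays.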
